A study of Homo sapiens with 12 samples.

Results

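TSPEAR, TSPEAR-AS1, TSPEAR-AS2, LINC02575 and UBE2G2 lie beside or inside one another on the long arm of human chromosome 21, and their counts are described here across TET1 catalytic domain knockout (CDKO) and control (CTRL) cells. They are 5 of the 36762 genes in each deposited count table and were found by their symbols. The 3 non-coding genes were chosen by their lower counts in CDKO libraries, which were already known. TSPEAR was added as the gene that the antisense genes lie in, and UBE2G2 as a neighbour. All 5 passed the filter on low counts in every comparison. Because of this choice the differences between the genotypes are given for these genes as levels, fold changes and intervals, with no p-value of their own, and their calls are only counted beside the share called over all genes.

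All cells came from UCLA1, a human embryonic stem cell (hESC) line, and the study asked what the catalytic activity of TET1 does for human germ cell fate. The 4 groups were CDKO iMeLC (lines CDKO1102, CDKO1105 and CDKO1312), CTRL iMeLC (lines CTRL1101, CTRL1106 and CTRL1109), CDKO hESC and CTRL hESC, with 3 bulk RNA-seq libraries each. iMeLC are incipient mesoderm-like cells, the transient state through which hESC are taken towards germ cell-like cells. Per the labels, the CDKO lines lack the catalytic domain of TET1 and the CTRL lines carry the genotype Control. The labels do not say how the lines were derived. The labels place the same 6 lines at both stages, but the hESC columns are numbered 1 to 3 and name no line, so the fits over both stages treat the 12 libraries as independent.

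The TET enzymes oxidise 5-methylcytosine, which in mammals sits mostly in CG dinucleotides, and this oxidation is a step on the way to unmethylated DNA. TSPEAR encodes a protein with a laminin G-like domain and epilepsy-associated repeats, and variants of the human gene are known in disorders of hair and teeth. TSPEAR-AS1 and TSPEAR-AS2 are antisense non-coding genes inside the TSPEAR span, and LINC02575 is a long intergenic non-coding gene beyond the end of TSPEAR transcription. No function is assigned to these non-coding genes here. UBE2G2 encodes a ubiquitin-conjugating enzyme that works with membrane ubiquitin ligases in endoplasmic reticulum-associated degradation (ERAD), the disposal of misfolded proteins.

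On GRCh38, in GENCODE release 29, TSPEAR (ENSG00000175894) spans chromosome 21 from 44497892 to 44711580 on the minus strand, with 4471 bases of annotated exon. TSPEAR-AS1 (ENSG00000235890, 44506807 to 44516575, 2355 exon bases) and TSPEAR-AS2 (ENSG00000182912, 44517216 to 44525952, 3026 exon bases) lie on the plus strand inside that span, and 640 bases separate them. LINC02575 (ENSG00000228709, 44485577 to 44490288, 912 exon bases) is on the plus strand 7603 bases beyond the 3′ end of TSPEAR. UBE2G2 (ENSG00000184787, 44768580 to 44802019, minus strand, 7388 exon bases) lies 56999 bases beyond the other end.

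**Figure D1:**
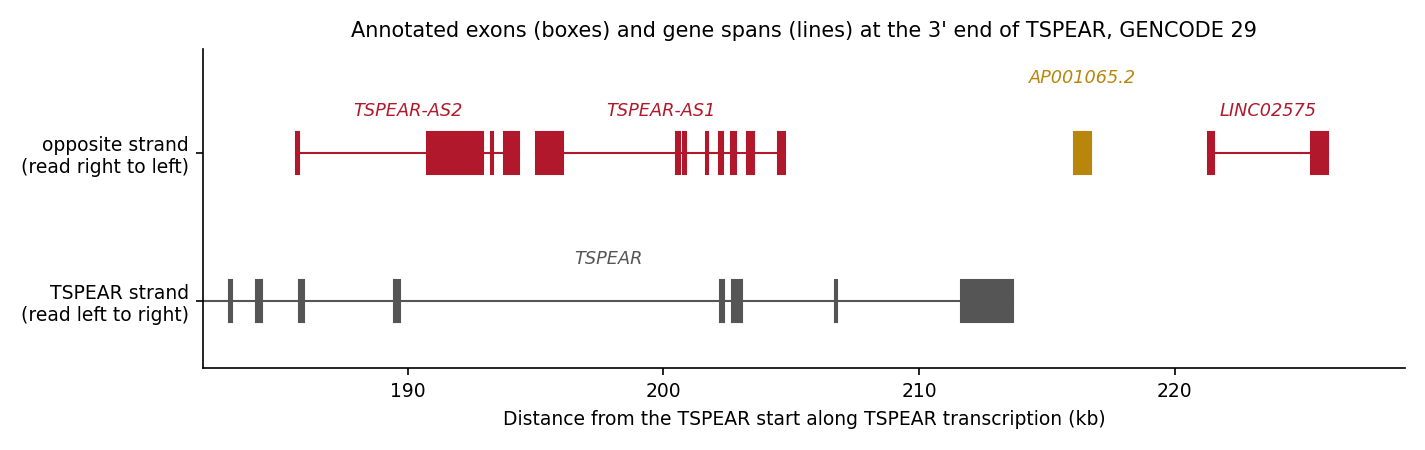
Annotated exons (boxes) and gene spans (thin lines) near the 3′ end of TSPEAR in GENCODE release 29, by distance in kb from the TSPEAR start along its transcription. TSPEAR-AS2, TSPEAR-AS1, AP001065.2 and LINC02575 run on the opposite strand, and exons of TSPEAR-AS1 lie over exons of TSPEAR.

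The 3 non-coding genes were low in CDKO at both stages, so the starts of the 2 with an entry in the RefSeq promoter table (GRCh38.p14) are shown first. Each window holds 300 bases around the RefSeq start, most of them upstream of it, 5′ to 3′ on the strand of the gene, with every CG dinucleotide, whose methylated form is what TET1 oxidises, in capitals. The TSPEAR-AS1 window is chr21:44505794-44506093 (plus strand). It ends before the GENCODE gene starts at 44506807, so it holds no base of that gene. The TSPEAR-AS2 window is chr21:44516965-44517264 (plus strand).
TSPEAR-AS1: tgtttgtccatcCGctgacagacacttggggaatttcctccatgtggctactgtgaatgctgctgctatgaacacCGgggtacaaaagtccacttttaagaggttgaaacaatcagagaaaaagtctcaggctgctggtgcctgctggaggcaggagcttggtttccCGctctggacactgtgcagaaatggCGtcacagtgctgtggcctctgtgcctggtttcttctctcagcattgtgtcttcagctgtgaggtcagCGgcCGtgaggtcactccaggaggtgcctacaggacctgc
TSPEAR-AS2: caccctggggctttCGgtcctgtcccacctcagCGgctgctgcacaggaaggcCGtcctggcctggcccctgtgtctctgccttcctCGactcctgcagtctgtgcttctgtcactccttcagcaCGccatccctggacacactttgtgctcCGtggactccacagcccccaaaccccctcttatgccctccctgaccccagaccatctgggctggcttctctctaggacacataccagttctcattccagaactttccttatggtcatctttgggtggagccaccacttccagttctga
Each of these windows held 6 CG dinucleotides, with 53.7% of bases G or C at TSPEAR-AS1 and 59% at TSPEAR-AS2. The UBE2G2 window (chr21:44801771-44802070, minus strand) held 36, with 69.7% G or C. CG reads the same on both strands. Over the 35116 promoter windows of the same length the median was 14 CG, 36.8% held 6 or fewer and 12.7% held 36 or more. The counts describe the letters only; DNA methylation was not analysed here.

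Libraries were made with a stranded kit, per the labels' protocols, but these do not state the strand setting used in counting. Reads from exons that lie over each other on opposite strands therefore cannot be assigned with certainty. Exons of TSPEAR-AS1 and TSPEAR shared 320 bases, 13.6% of the exon bases of TSPEAR-AS1 and 7.16% of those of TSPEAR. The larger shared stretch, chr21:44508727-44508911 (written on the plus strand, 185 bases, all of them within a TSPEAR exon that is neither coding nor UTR in this annotation), is shown because its reads could be given to either gene.
TSPEAR-AS1 exon over TSPEAR: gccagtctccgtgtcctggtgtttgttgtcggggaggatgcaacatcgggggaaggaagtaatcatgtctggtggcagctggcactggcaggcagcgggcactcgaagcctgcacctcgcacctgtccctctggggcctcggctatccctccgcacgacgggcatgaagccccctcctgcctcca
TSPEAR-AS2 and TSPEAR shared 16 exon bases, and neither LINC02575 nor UBE2G2 overlapped an annotated gene.

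Library totals were 52121702 to 89723454 counts in CDKO iMeLC, 91226186 to 109479071 in CTRL iMeLC, 12517593 to 18556180 in CDKO hESC and 16325691 to 18855099 in CTRL hESC. TET1 itself, summed over the whole gene, stood at 268 to 309 CPM (a count scaled to a common library size, here after TMM correction for composition) in CDKO iMeLC and 257 to 289 CPM in CTRL iMeLC, and at 378 to 448 CPM in CDKO hESC and 325 to 380 CPM in CTRL hESC; such a total cannot show the loss of some exons. The 6 hESC markers fixed for the check summed to 3289 to 3466 CPM of the library total in CDKO iMeLC, 3054 to 3507 in CTRL iMeLC, 6282 to 6657 in CDKO hESC and 5677 to 6293 in CTRL hESC. The 6 primitive streak markers summed to 646 to 840, 187 to 781, 65.0 to 212 and 27.2 to 57.9 CPM in the same order of groups. Markers of other cell types the cultures could hold were summed too. Those of endoderm (4 genes) came to 107 to 240 CPM in CDKO iMeLC and 9.81 to 104 in CTRL iMeLC, and to 10.1 to 148 CPM in CDKO hESC and 4.89 to 21.1 in CTRL hESC. Those of fibroblasts (6 genes) came to 685 to 925 CPM in CDKO iMeLC and 476 to 919 in CTRL iMeLC, and to 519 to 660 CPM in CDKO hESC and 434 to 663 in CTRL hESC. These sums hide unlike members. In iMeLC the means of COL3A1, LUM and DCN were 103, 2.21 and 5.87 CPM in CDKO against 24.3, 0.336 and 1.67 in CTRL. Those of COL1A1, COL1A2 and THY1 were 370, 194 and 125 against 310, 162 and 128. In hESC, THY1 alone averaged 384 CPM in CDKO and 314 in CTRL. No hESC, primitive streak or endoderm marker was at 0 in any library, and at most 1 fibroblast marker was. The part of these cells in the differences below was not tested, and in bulk libraries fewer cells of a type and less RNA per cell cannot be told apart.

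In iMeLC, the 3 non-coding genes stood between 13.4-fold and 22.2-fold lower in CDKO than in CTRL, while TSPEAR, whose span holds the antisense genes, and UBE2G2 differed by little. TSPEAR-AS1, the antisense gene nearer the 3′ end of TSPEAR, had 0.217, 0.160 and 0.651 CPM in CDKO1102, CDKO1105 and CDKO1312, from 11, 14 and 51 counts. It had 5.24, 10.9 and 7.02 CPM in CTRL1101, CTRL1106 and CTRL1109, from 503, 1049 and 791 counts. Every CDKO library was below every CTRL library, and CDKO1312 was the highest of the CDKO libraries. The share of all genes whose groups do not overlap was not counted, so nothing is read from such separation here or below.

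TSPEAR-AS2, the antisense gene further inside TSPEAR, had 0.178, 0.401 and 0.179 CPM in CDKO1102, CDKO1105 and CDKO1312, from 9, 35 and 14 counts. It had 2.10, 5.07 and 3.26 CPM in CTRL1101, CTRL1106 and CTRL1109, from 202, 487 and 368 counts. The groups did not overlap, and CTRL1101 was the lowest and CTRL1106 the highest CTRL library for both antisense genes.

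LINC02575, the intergenic gene, had 0.513, 0.744 and 0.778 CPM in CDKO1102, CDKO1105 and CDKO1312, from 26, 65 and 61 counts. It had 9.0, 9.81 and 11.5 CPM in CTRL1101, CTRL1106 and CTRL1109, from 864, 943 and 1295 counts. The groups again did not overlap, and relative to its mean the spread within each was narrower than for the antisense genes. Its order of libraries was not theirs, since CTRL1109 was its highest.

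TSPEAR had 3.99, 4.96 and 3.10 CPM in CDKO1102, CDKO1105 and CDKO1312, and 4.29, 4.74 and 3.03 CPM in CTRL1101, CTRL1106 and CTRL1109. The 2 groups spread over nearly the same range. UBE2G2, the conjugating enzyme gene, had 181, 183 and 193 CPM in the CDKO iMeLC libraries and 198, 188 and 187 CPM in the CTRL iMeLC libraries, so its groups overlapped too.

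**Figure D2:**
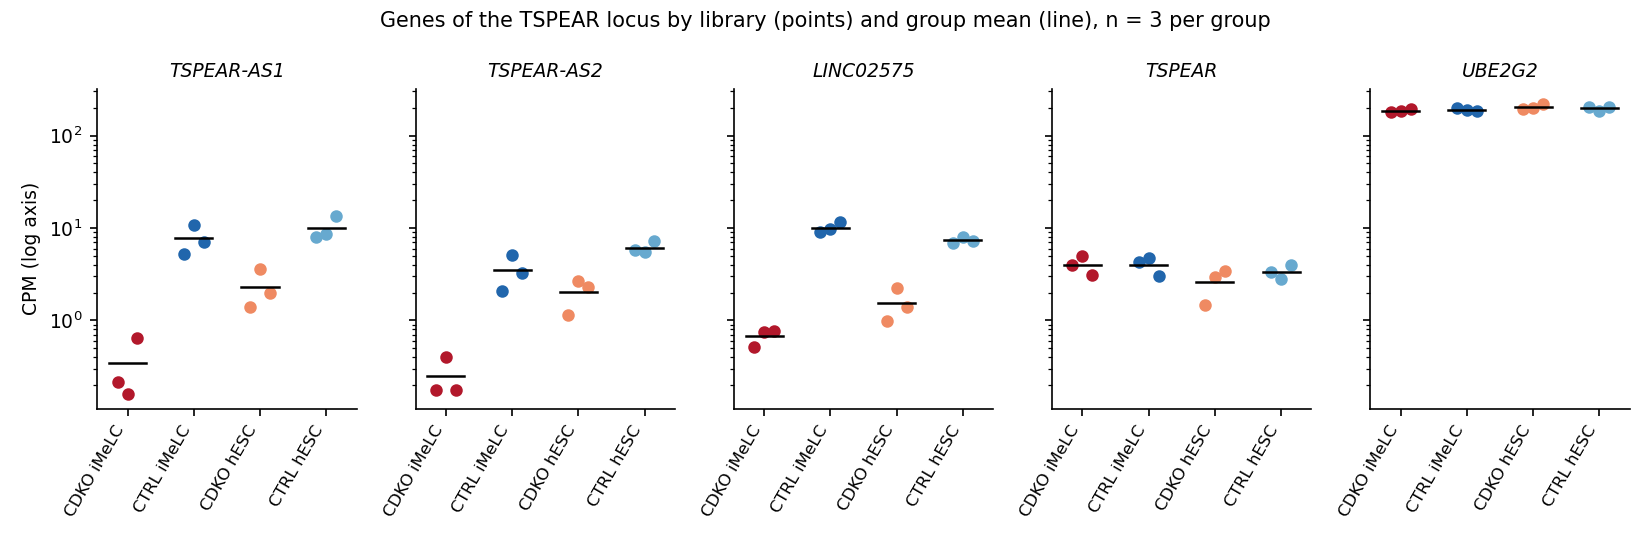
CPM of each gene on a log axis in every library (points, n = 3 a group), with the group mean as a line, scaled within each stage. TSPEAR-AS1, TSPEAR-AS2 and LINC02575 lie lower in CDKO than in CTRL without overlap at both stages, and TSPEAR and UBE2G2 overlap. The non-coding genes were chosen for lower CDKO counts, so nothing is read from their lack of overlap.

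On the log2 scale of the edgeR quasi-likelihood fit over the 6 iMeLC libraries, the difference between CDKO and CTRL was -4.47 for TSPEAR-AS1 (SE 0.57, 95% interval -5.79 to -3.16), 22.2-fold lower in CDKO. It was -3.75 for TSPEAR-AS2 (SE 0.49, -4.88 to -2.62), 13.4-fold lower, and -3.88 for LINC02575 (SE 0.24, -4.44 to -3.32), 14.7-fold lower. The 3 intervals overlapped one another. For TSPEAR the difference was -0.0017 (SE 0.26, -0.61 to 0.61) and for UBE2G2 -0.04 (SE 0.07, -0.21 to 0.13). A difference of TSPEAR within that interval was not detectable with these libraries.

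In this comparison 3 of the 5 genes were called lower and none higher at an adjusted p under 0.05, where 0.345% of the 19999 tested genes were called in either direction and 0.265% were called lower. Nothing is read from that count, since the genes were chosen on it. The number called varied with single libraries, for all genes as for these. Without CTRL1109, CDKO1102 or CDKO1105, 1 of the 5 was called, where 32, 15 and 21 of all genes were. Without CDKO1312, 2 of the 5 were called, where 20 of all genes were. The differences themselves stayed about as large without CTRL1109, CDKO1102 or CDKO1105, at -4.53, -4.25 and -4.11 for TSPEAR-AS1 and -3.79, -3.57 and -4.27 for TSPEAR-AS2. The log2 difference of TSPEAR-AS1 moved most: without CDKO1312, its highest CDKO library, its log2 difference was -5.37.

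In hESC the same 3 genes were lower in CDKO by between 2.92-fold and 4.67-fold. TSPEAR-AS1 had 1.39, 3.58 and 1.97 CPM in CDKO hESC 1 to 3, from 17, 65 and 34 counts. It had 8.0, 8.66 and 13.6 CPM in CTRL hESC 1 to 3, from 130, 153 and 262 counts. The CDKO libraries were all below the CTRL libraries, and CTRL hESC 3 was high within its group.

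TSPEAR-AS2 had 1.14, 2.70 and 2.31 CPM in CDKO hESC 1 to 3, from 14, 49 and 40 counts, and 5.72, 5.49 and 7.21 CPM in CTRL hESC 1 to 3, from 93, 97 and 139 counts. LINC02575 had 0.980, 2.26 and 1.39 CPM in CDKO hESC 1 to 3, from 12, 41 and 24 counts, and 6.95, 8.04 and 7.21 CPM in CTRL hESC 1 to 3, from 113, 142 and 139 counts. For both the groups did not overlap. CDKO hESC 1, the shallowest library, was the lowest and CDKO hESC 2 the highest CDKO hESC library for all 3 non-coding genes.

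TSPEAR had 1.47, 2.92 and 3.47 CPM in CDKO hESC 1 to 3, from 18, 53 and 60 counts, and 3.32, 2.83 and 3.99 CPM in CTRL hESC 1 to 3, from 54, 50 and 77 counts. CDKO hESC 1 was again the lowest, and the groups overlapped. UBE2G2 had 195, 197 and 222 CPM in CDKO hESC 1 to 3 and 206, 186 and 205 CPM in CTRL hESC 1 to 3, also overlapping.

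The log2 differences between CDKO and CTRL hESC were -2.09 for TSPEAR-AS1 (SE 0.33, 95% interval -2.83 to -1.35), -1.55 for TSPEAR-AS2 (SE 0.29, -2.19 to -0.91) and -2.22 for LINC02575 (SE 0.27, -2.83 to -1.61). In linear terms these were 4.26-fold, 2.92-fold and 4.67-fold lower. TSPEAR differed by -0.35 (SE 0.31, -1.03 to 0.34) and UBE2G2 by 0.04 (SE 0.08, -0.14 to 0.22). Of the 5 genes 3 were called lower and none higher, where 1.31% of 17222 tested genes were called in either direction and 0.714% lower, and again nothing is read from the count. Without CDKO hESC 3 none of the 5 genes was called, where 41 of all genes were. The differences were about as large, at -1.97 for TSPEAR-AS1, -1.62 for TSPEAR-AS2 and -2.13 for LINC02575. Omitting CDKO hESC 1 or CDKO hESC 2 left 1 of the 5 called, where 28 and 5 of all genes were. Fitting all 12 libraries together also left 1 of the 5 called, where 72 of all genes were. The differences there were -2.11 for TSPEAR-AS1, -1.57 for TSPEAR-AS2 and -2.24 for LINC02575.

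**Figure D3:**
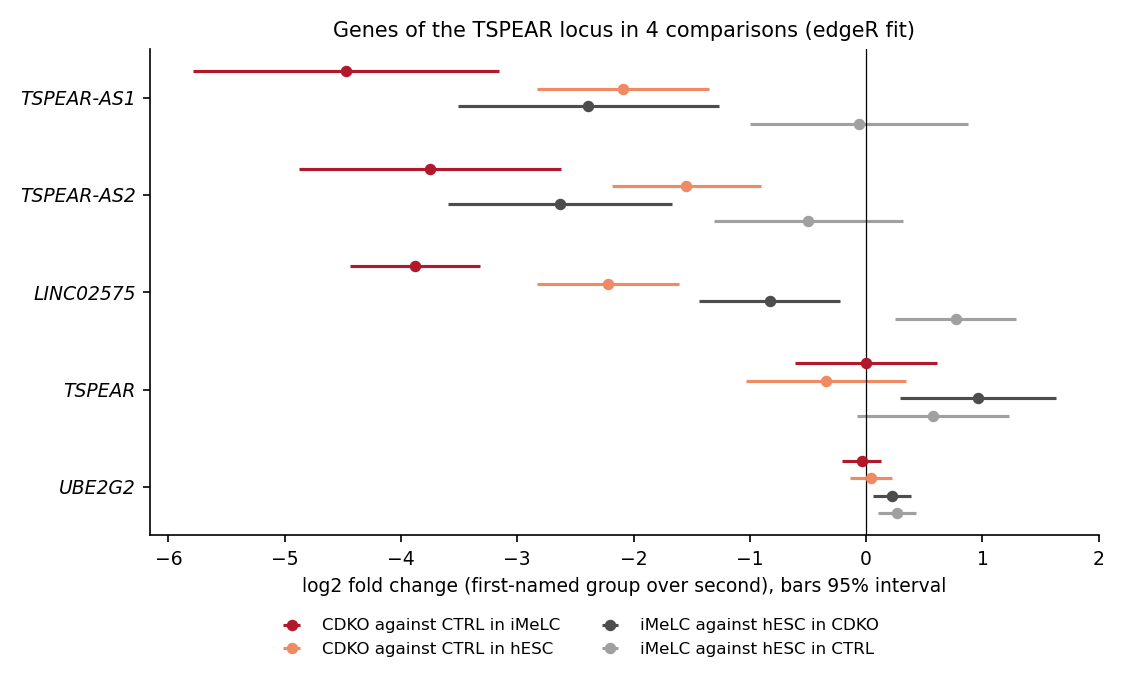
Log2 fold changes from the edgeR fits (points) with 95% intervals (bars) for each gene, CDKO over CTRL in iMeLC and hESC and iMeLC over hESC in CDKO and CTRL. The genotype intervals of TSPEAR-AS1, TSPEAR-AS2 and LINC02575 lie below 0 at both stages, and those of TSPEAR and UBE2G2 span 0.

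The ratio of TSPEAR-AS1 counts to TSPEAR counts within a library needs no scaling between libraries. It was 0.0545, 0.0323 and 0.21 in CDKO1102, CDKO1105 and CDKO1312, against 1.22, 2.30 and 2.31 in CTRL1101, CTRL1106 and CTRL1109. In hESC it was 0.944, 1.23 and 0.567 in CDKO hESC 1 to 3, against 2.41, 3.06 and 3.4 in CTRL hESC 1 to 3. TSPEAR-AS1 thus took fewer reads than TSPEAR in every CDKO iMeLC library and more in every CTRL library of both stages, with CDKO hESC on either side of 1. The ratio shows an unequal difference between the 2 genes and does not show that TSPEAR itself was the same.

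Per kb of annotated exon, the levels can be compared between genes. UBE2G2 was the highest in every group, at 25.2 ± 0.865 CPM per kb in CDKO iMeLC, 25.8 ± 0.788 in CTRL iMeLC, 27.7 ± 2.06 in CDKO hESC and 26.9 ± 1.53 in CTRL hESC (SD, n = 3 each). In CTRL iMeLC the order below it was LINC02575 (11.1 ± 1.39 CPM per kb), TSPEAR-AS1 (3.28 ± 1.23), TSPEAR-AS2 (1.15 ± 0.493) and TSPEAR (0.900 ± 0.198). TSPEAR-AS2 and TSPEAR were within their spread of each other. In CDKO iMeLC it was TSPEAR (0.898 ± 0.208 CPM per kb), LINC02575 (0.744 ± 0.158), TSPEAR-AS1 (0.146 ± 0.114) and TSPEAR-AS2 (0.0834 ± 0.0425), and the first 2 of these, like the last 2, were within their spread.

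In CTRL hESC the order per kb below UBE2G2 was LINC02575 (8.11 ± 0.622 CPM per kb), TSPEAR-AS1 (4.28 ± 1.30), TSPEAR-AS2 (2.03 ± 0.308) and TSPEAR (0.756 ± 0.130), and each step was larger than the spread. In CDKO hESC it was LINC02575 (1.69 ± 0.716 CPM per kb), TSPEAR-AS1 (0.982 ± 0.482), TSPEAR-AS2 (0.678 ± 0.268) and TSPEAR (0.586 ± 0.231). There the neighbours in the order did not differ beyond their spread. TSPEAR was thus first of these 4 genes in CDKO iMeLC and last in the other groups, while its own mean was nearly the same in both iMeLC groups.

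The difference between CDKO and CTRL was deeper in iMeLC than in hESC for each of the 3 non-coding genes. In the fit over all 12 libraries the log2 difference of differences, iMeLC minus hESC, was -2.33 for TSPEAR-AS1 (SE 0.67), -2.13 for TSPEAR-AS2 (SE 0.58) and -1.60 for LINC02575 (SE 0.37). It was 0.39 for TSPEAR (SE 0.43) and -0.04 for UBE2G2 (SE 0.11). None of the 5 genes passed the interaction test over all genes at an adjusted p under 0.05, where 0.0197% of 20262 tested genes did. The interaction contains the genotype difference on which the 3 non-coding genes were chosen. For these 3 it is therefore a description, nothing is read from that count, and a difference between the stages is not shown. The stages coincide with separate tables, dates and depths, so a difference between the stages cannot be told apart from one between the tables.

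The stages themselves were compared in the same fit, where CPM are scaled over all 12 libraries. UBE2G2 averaged 212 ± 7.34 CPM in CDKO iMeLC and 181 ± 13.7 CPM in CDKO hESC, and 213 ± 8.39 CPM in CTRL iMeLC and 177 ± 9.77 CPM in CTRL hESC (SD, n = 3 each). Its log2 difference between iMeLC and hESC was 0.22 in CDKO (SE 0.08, adjusted p = 0.0228) and 0.26 in CTRL (SE 0.08, adjusted p = 0.0117) by edgeR's quasi-likelihood test with Benjamini-Hochberg adjustment. These calls depended on the scaling. With plain library totals UBE2G2 stood lower in iMeLC, at -0.16 in CDKO (adjusted p = 0.0857) and -0.03 in CTRL (adjusted p = 0.736), and with DESeq2 size factors both were 0.17 and not called (adjusted p = 0.0611 in CDKO and 0.0715 in CTRL). Each of these scalings moved the median of all genes, which was -0.08 in CDKO and -0.01 in CTRL with TMM, -0.13 and -0.10 with size factors and -0.46 and -0.31 with library totals, so UBE2G2 was above the median of all genes under each. The call in CTRL was also lost without CTRL1101 (0.19, adjusted p = 0.0661), and the call in CDKO without any of CDKO hESC 1, CDKO hESC 2, CDKO1102, CDKO1105 or CDKO1312 (0.13 to 0.22, adjusted p = 0.0631 to 0.22).

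TSPEAR averaged 4.57 ± 1.09 CPM in CDKO iMeLC and 2.32 ± 0.915 CPM in CDKO hESC on that scale, and 4.49 ± 1.01 CPM in CTRL iMeLC and 3.01 ± 0.504 CPM in CTRL hESC (SD, n = 3 each). Its log2 difference was 0.96 in CDKO (SE 0.31, adjusted p = 0.0167), a call, and 0.57 in CTRL (SE 0.30, adjusted p = 0.133), not a call. The call in CDKO was lost with library totals (0.57, adjusted p = 0.126), without CDKO hESC 1 (0.71, adjusted p = 0.0563) and without CDKO1105 (0.70, adjusted p = 0.0921). The difference between these genotypes is the 0.39 of the interaction above, which did not pass.

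The 3 non-coding genes share the libraries on which they were chosen, so their stage values are a description. In CDKO the log2 difference between iMeLC and hESC was -2.39 for TSPEAR-AS1 (SE 0.52), -2.63 for TSPEAR-AS2 (SE 0.44) and -0.83 for LINC02575 (SE 0.28). In CTRL it was -0.06 for TSPEAR-AS1 (SE 0.43), -0.50 for TSPEAR-AS2 (SE 0.38) and 0.77 for LINC02575 (SE 0.24). LINC02575 was thus lower in iMeLC than in hESC in CDKO and higher in CTRL, and kept these signs under each of the scalings. In CDKO 5 of the 5 genes were called between the stages, 3 lower and 2 higher in iMeLC, where 59.8% of all tested genes were called, and in CTRL 2 of 5 were called, LINC02575 and UBE2G2, both higher, where 49.4% were. The LINC02575 call in CDKO was lost without CDKO hESC 2 (-0.42), and that in CTRL with library totals (0.48), without CTRL hESC 1 (0.76) and without CTRL1109 (0.63). Against such backgrounds these counts say little of the 5 genes.

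Around the locus, 56 genes other than these 5 lie wholly or partly within 500 kb of TSPEAR, of which 25 were tested in iMeLC and 18 in hESC. In the main edgeR fits none of them was called between CDKO and CTRL at either stage, against the 0.345% and 1.31% of all genes. At an unadjusted p under 0.05 there were 6 in iMeLC and 2 in hESC, beside 3952 of all 19999 tested genes and 2777 of all 17222. DESeq2 called 6 in iMeLC and 0 in hESC, beside 1566 and 618 over all genes. The median log2 difference of the neighbours was -0.01 in iMeLC and -0.03 in hESC, beside -0.03 and -0.0018 over all tested genes. Within 1000 kb, 40 and 31 genes were tested and again none was called in the main edgeR fits (7 and 3 at an unadjusted p under 0.05, 7 and 0 by DESeq2). On chromosome 21 apart from the 5 genes, 1 of 232 tested genes was called higher and 1 lower in CDKO iMeLC, and 2 of 172 higher and 2 lower in CDKO hESC.

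The nearest tested genes on either side of the 5 were AP001065.1 and LINC01424, both non-coding. AP001065.1 had a mean of 0.933 ± 0.543 CPM in CDKO iMeLC and 0.533 ± 0.154 CPM in CTRL iMeLC (SD, n = 3 each), a log2 difference of 0.79 (SE 0.56, adjusted p = 0.452), and in hESC the difference was -0.10 (SE 0.49, adjusted p = 0.938). LINC01424 had 0.484 ± 0.0592 CPM in CDKO iMeLC and 0.817 ± 0.194 CPM in CTRL iMeLC (SD, n = 3 each), a log2 difference of -0.75 (SE 0.35, adjusted p = 0.283), and in hESC the difference was 0.47 (SE 0.32, adjusted p = 0.511). Neither passed at either stage, by edgeR's quasi-likelihood test.

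A further non-coding gene between LINC02575 and the 3′ end of TSPEAR, AP001065.2 (44494874 to 44495519, plus strand), was singled out after its values were seen. It had 0.118, 0 and 0.0765 CPM in CDKO1102, CDKO1105 and CDKO1312, from 6, 0 and 6 counts, against 1.25, 1.56 and 1.71 CPM in CTRL1101, CTRL1106 and CTRL1109, from 120, 150 and 193 counts. The 0 of CDKO1105 allows up to 3 counts. In hESC it had 0.245, 0.441 and 0.463 CPM in CDKO hESC 1 to 3, from 3, 8 and 8 counts, against 1.23, 1.92 and 1.19 CPM in CTRL hESC 1 to 3, from 20, 34 and 23 counts.

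The groups of AP001065.2 did not overlap at either stage, from which nothing is read, since it was singled out after these values were seen. Its log2 difference was -4.64 in iMeLC (SE 0.79, adjusted p = 0.0756) and -1.86 in hESC (SE 0.40, adjusted p = 0.0593) by edgeR, so it was not called. Its adjusted p ranged over the alternatives from 2.54e-09 (DESeq2) to 0.277 in iMeLC and from 0.00554 (no filter on low counts) to 0.275 in hESC. Farther off, AIRE, the autoimmune regulator of thymic antigen expression, was also seen to be low, with 0.108 ± 0.0951 CPM in CDKO iMeLC and 1.38 ± 0.923 CPM in CTRL iMeLC (SD, n = 3 each). Its log2 difference was -3.61 (SE 0.73, adjusted p = 0.098), which did not pass and ranged from 6.15e-05 to 0.389 over the alternatives.

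These 2 were among the 6 neighbours with an unadjusted p under 0.05 in iMeLC, of which 3 stood lower and 3 higher in CDKO. All 6 were called by DESeq2 and none in the main edgeR fit over the 6 iMeLC libraries. Other edgeR fits called at least AP001065.2, AIRE and LRRC3. Their adjusted p was 0.00694, 0.0185 and 0.0321 with no filter on low counts, and 0.0033, 0.0174 and 0.0164 over 12 libraries. Over the alternatives the adjusted p ranged from 0.00128 (DESeq2) to 0.402 for LRRC3 and from 0.00269 (DESeq2) to 0.414 for TRPM2. The third low one was TRPM2, a calcium-permeable channel, with 2.28 ± 1.79 CPM in CDKO and 8.67 ± 2.58 CPM in CTRL (SD, n = 3 each) and a log2 difference of -1.91 (SE 0.54, adjusted p = 0.144). LRRC3, a leucine-rich repeat gene, stood higher with 32.0 ± 3.61 CPM in CDKO and 17.6 ± 4.56 CPM in CTRL (SD, n = 3 each), a log2 difference of 0.86 (SE 0.19, adjusted p = 0.107). DNMT3L, a cofactor of de novo DNA methylation, averaged 0.614 CPM in CDKO and 0.174 CPM in CTRL (1.82, SE 0.48, adjusted p = 0.136). ICOSLG, a T cell costimulatory ligand, averaged 0.904 CPM in CDKO and 0.341 CPM in CTRL (1.40, SE 0.37, adjusted p = 0.135).

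**Figure D4:**
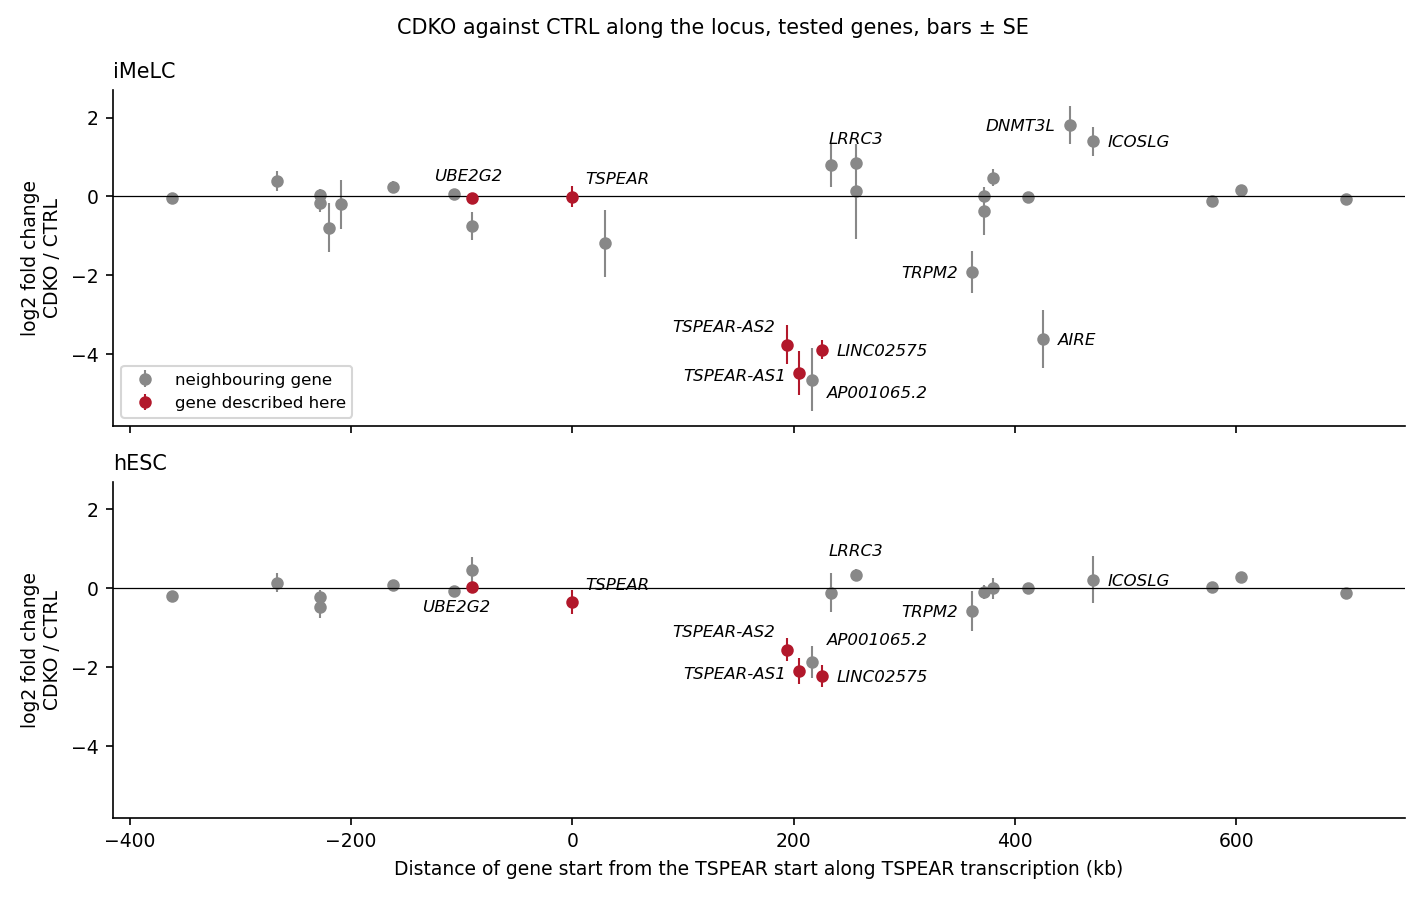
Log2 fold change of CDKO over CTRL (points, bars ± SE) for each tested gene within 500 kb of TSPEAR, by the distance of its start from the TSPEAR start in kb, in iMeLC (above) and hESC (below). TSPEAR-AS2, TSPEAR-AS1, AP001065.2 and LINC02575, which start near the 3′ end of TSPEAR, are low at both stages. AP001065.1, the nearest tested gene beyond LINC02575, stands at 0.79 (SE 0.56) in iMeLC and -0.10 (SE 0.49) in hESC. In iMeLC AIRE and TRPM2 are low and LRRC3, DNMT3L and ICOSLG high. TSPEAR and UBE2G2 lie near 0. TSPEAR-AS1, TSPEAR-AS2 and LINC02575 were chosen for lower CDKO counts, so nothing is read from their lying together. AP001065.2, AIRE, TRPM2, LRRC3, DNMT3L and ICOSLG were named after their values were seen, and none was called in the main edgeR fits.

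The KRTAP10 and KRTAP12 genes, which encode keratin-associated proteins of the hair shaft, lie inside the TSPEAR span. All 16 had rows in the tables, and none had more than 56 counts over the 3 libraries of a group. Between the genotypes only KRTAP12-1 could be tested, and only in iMeLC, with 0.0794 ± 0.0701 CPM in CDKO and 0.191 ± 0.136 CPM in CTRL (SD, n = 3 each) and a log2 difference of -1.19 (SE 0.86, adjusted p = 0.465). The 6 epidermis and hair follicle markers together reached at most 2.06 CPM in any library.

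The other genes with epilepsy-associated repeats, LGI1 to LGI4 and ADGRV1, were set beside TSPEAR. Of these 5, 5 were tested in iMeLC and 3 in hESC, and the main edgeR fits called none between CDKO and CTRL (0 and 1 at an unadjusted p under 0.05, 0 and 0 by DESeq2). Over all genes 3952 of 19999 in iMeLC and 2777 of 17222 in hESC had such a p, and DESeq2 called 1566 and 618. ADGRV1, the adhesion receptor of inner ear hair cells, had 140 ± 8.67 CPM in CDKO iMeLC and 165 ± 29.7 CPM in CTRL iMeLC, and 237 ± 21.9 CPM in CDKO hESC and 204 ± 13.96 CPM in CTRL hESC (SD, n = 3 each). LGI4, a secreted protein of peripheral glia, had 0.694 ± 0.281 CPM in CDKO iMeLC and 1.68 ± 1.17 CPM in CTRL iMeLC, a log2 difference of -1.28 (SE 0.63, adjusted p = 0.304).

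The listed ERAD genes that act with UBE2G2 or beside it numbered 23, all tested. In the main edgeR fits none was called between CDKO and CTRL in iMeLC (7 at an unadjusted p under 0.05, 2 by DESeq2) or in hESC (3 and 0). The same counts over all genes were 3952 of 19999 and 1566 in iMeLC, and 2777 of 17222 and 618 in hESC. The median log2 difference of the list was 0.19 in iMeLC and 0.07 in hESC, beside the -0.03 and -0.0018 of all tested genes. SEL1L, the adaptor of the HRD1 ligase, had 62.4 ± 5.39 CPM in CDKO iMeLC and 48.2 ± 1.02 CPM in CTRL iMeLC (SD, n = 3 each), and a log2 difference of 0.37 (SE 0.09, adjusted p = 0.127).

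AUP1, which recruits UBE2G2 to the membrane and to lipid droplets, had 113 ± 8.35 CPM in CDKO iMeLC and 91.1 ± 10.6 CPM in CTRL iMeLC, and 123 ± 13.2 CPM in CDKO hESC and 95.9 ± 13.4 CPM in CTRL hESC (SD, n = 3 each). Its log2 differences were 0.31 (SE 0.11, adjusted p = 0.186) and 0.36 (SE 0.12, adjusted p = 0.176). DERL1, a channel component of ERAD, differed by 0.31 in iMeLC (SE 0.10, adjusted p = 0.174) and 0.23 in hESC (SE 0.08, adjusted p = 0.216). Between the stages, 17 of the 23 were called higher and 2 lower in iMeLC in CDKO, and likewise 17 and 2 in CTRL, beside the 59.8% and 49.4% of all genes called in either direction. Of all 20262 tested genes, 6510 were called higher and 5603 lower in CDKO, and 5981 and 4032 in CTRL. How far the directions of this list depend on the scaling was not tested.

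Across the 12 libraries the log2 CPM (with a prior count of 2) of TSPEAR-AS1 and TSPEAR-AS2 had a Pearson r of 0.93, TSPEAR-AS1 and LINC02575 of 0.91, and TSPEAR-AS2 and LINC02575 of 0.85. TSPEAR had an r of -0.11 with TSPEAR-AS1, -0.13 with TSPEAR-AS2 and 0.17 with LINC02575, and of 0.76 with UBE2G2. These describe 4 groups of libraries that differ in genotype, stage, depth and table, and a gene chosen for its genotype difference carries that difference into its r.

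By the same measure, the 5 genes most like TSPEAR-AS1 outside the locus were ANO9, LINC01162, BAIAP2L2, AC106791.1 and ONECUT2, with r from 0.966 to 0.974. Those most like TSPEAR-AS2 were NAP1L5, GHDC, LINC00954, FAM189A1 and C1RL (0.960 to 0.980), and those most like LINC02575 were PKP3, ZFP3, TSPYL5, SCHIP1 and FAM120B (0.934 to 0.962). None of these 15 lies on chromosome 21, which held 228 of the 20262 tested genes besides the 5 described here. All 15 had a lower mean in CDKO than in CTRL at both stages. They were picked by r with genes low in CDKO, so this is no separate result. On the scale of the 12 libraries NAP1L5, an imprinted gene, averaged 0.0136 CPM in CDKO iMeLC and 1.98 CPM in CTRL iMeLC, and 0.827 CPM in CDKO hESC and 4.57 CPM in CTRL hESC. PKP3, a plakophilin of desmosomes, averaged 2.38 CPM in CDKO iMeLC and 20.3 CPM in CTRL iMeLC, and 4.44 CPM in CDKO hESC and 11.2 CPM in CTRL hESC.

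The genes most like TSPEAR were NAIP, AC073174.1, C9orf116, SUFU and DCPS (r from 0.904 to 0.95), and those most like UBE2G2 were UBXN11, EFCAB2, CLUAP1, POLQ and CCNL2 (0.955 to 0.972). These 10 had higher means in iMeLC than in hESC in both genotypes, as had TSPEAR and UBE2G2, by whose r they were picked. SUFU, a brake on Hedgehog signalling, averaged 17.8 CPM in CDKO iMeLC and 9.41 CPM in CDKO hESC, and 19.1 CPM in CTRL iMeLC and 12.5 CPM in CTRL hESC. None of the nearest genes of TSPEAR or UBE2G2 was among those of the 3 non-coding genes.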

How the data were processed

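The members and gene lists were chosen with earlier results of these data known. Bulk RNA-seq was deposited as 2 tables of raw read counts by gene symbol, 6 hESC libraries in one and 6 iMeLC libraries in the other. The submitters' processing notes name GRCh38, cutadapt, FastQC and edgeR. No aligner, counter, annotation or strand setting is given in the sources used here. Of 36762 symbols, 34217 matched exactly 1 gene of GENCODE release 29. The iMeLC columns carry the line, the hESC columns only genotype and a number, and p-values reflect only how libraries vary, with line, culture and preparation not told apart.

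Counts were tested with edgeR 4.0.16 under R 4.3.3 (quasi-likelihood, two-sided, TMM, filterByExpr, Benjamini-Hochberg over all tested genes, threshold 0.05): CDKO against CTRL within each stage, iMeLC against hESC and the interaction over 12 libraries with 4 group means. CPM use TMM-scaled totals within a fit; marker sums use plain totals. Scripts were tested on simulated data. Alternatives were DESeq2 1.42.0, its size factors, library totals (chosen after seeing the data), no filter on low counts, the fit over 12 libraries and single-library omissions. Named genes were the 5 members in every library, called neighbours within 500 kb, the nearest tested gene on either side, up to 4 genes of each list with the smallest adjusted p, and the 5 genes with the highest r with each member. One gene that this rule names is not reported here. AP001065.2, AIRE, TRPM2, LRRC3, DNMT3L, ICOSLG and KRTAP12-1 were named after their values were seen. Promoter windows came from RefSeq (3 of 5 members matched).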

Additional observations from a re-analysis of the deposited data

How the results depend on the processing

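Of 496 fold changes recomputed, 419 kept their direction and their side of the threshold, 26 passed it newly, 35 no longer passed and 16 changed sign, 14 of these without a call in either fit. Of 66 recomputed differences of TSPEAR-AS1, TSPEAR-AS2 and LINC02575 between the genotypes, 18 were no longer called and none changed sign. Because these 3 genes were chosen for lower CDKO counts in the same libraries, nothing is read from their unchanged sign. The sign changes of a call were UBE2G2 between the stages with library totals, at -0.16 in CDKO and -0.034 in CTRL (against 0.22 and 0.26), and the scaling itself sets that sign. With DESeq2 size factors and with the DESeq2 Wald test UBE2G2 stood at 0.17 in CDKO and 0.17 in CTRL and was not called. Library totals also gave 0.57 for TSPEAR between the stages in CDKO, 0.48 for LINC02575 between the stages in CTRL and -0.10 for UBE2G2 between the genotypes in iMeLC. Over single-library omissions the log2 difference between the stages ranged from 0.70 to 1.21 for TSPEAR, -3.35 to -1.89 for TSPEAR-AS1, -1.03 to -0.42 for LINC02575 and 0.13 to 0.28 for UBE2G2 in CDKO, and from 0.63 to 0.85 for LINC02575 and 0.19 to 0.32 for UBE2G2 in CTRL. That between the genotypes for TSPEAR-AS1 in iMeLC ranged from -5.37 to -4.11. The number of genes called between CDKO and CTRL, 69 in iMeLC and 226 in hESC, was 428 and 1228 with no filter on low counts, 1566 and 618 with DESeq2, 1310 and 72 in the fit over 12 libraries, and 15 to 2646 and 5 to 493 over the omissions; the cause was not tested. The share called lower in iMeLC, 76.8%, was 56.8% with no filter and 54.5% with DESeq2, and between the stages library totals moved it to 66.1% in CDKO and 60.8% in CTRL, against 46.3% and 40.3%. Within 1000 kb as within 500 kb no neighbour was called by edgeR with the filter and TMM over the 6 libraries of a stage. The non-coding genes rest on 9 to 65 counts in a CDKO iMeLC library and 12 to 65 in a CDKO hESC library, which limits the precision of their folds. No paired analysis was possible because the hESC columns carry no line number and the CDKO and CTRL lines share none.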
